A study of Mus musculus with 9 samples.

Results

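The genes described here are 10 that mark intermediate progenitors of the pyramidal neuron lineage: Eomes, Neurog1, Neurog2, Neurod1, Neurod4, Insm1, Btg2, Mfap4, Sstr2 and Nhlh1. They were taken by gene name from 2 tables of gene counts that hold 22496 and 23624 genes, and each of the 10 had 1 row in both. RNA was sequenced from cortex of mice at postnatal day 0 in 9 libraries, 3 each of wild-type littermates, of ShhN IUE brains and of brains carrying hGFAP-Cre with a SmoM2f allele, which the series' design text writes as SmoM2f/+. All groups share a strain background mixed from C57BL/6J, 129S6 and CD1. ShhN is the secreted N-terminal fragment of Sonic hedgehog (SHH), and IUE stands for in utero electroporation. An electroporation reaches only part of the cells of a cortex, and the labels name no group electroporated without ShhN, so an effect of the procedure cannot be told apart from one of ShhN. SmoM2 is a constitutively active Smoothened, which passes on SHH signals, and the human GFAP promoter drives Cre in radial glia, so cells outside that lineage keep the normal protein. No label says whether replicates came from separate animals or litters, and p-values then measure only the spread between these samples, which may be technical. One table pairs ShhN IUE with the wild type and the other pairs SmoM2 with the same 3 wild-type libraries, quantified again. Each group was compared with the wild type of its own table, so both comparisons share their controls.

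In the developing cortex, radial glia divide to give either neurons or intermediate progenitors, which move to the subventricular zone and divide there into pyramidal neurons. Their sequence is usually drawn as Pax6 in radial glia, then the proneural factor Neurog2, then the T-box factor Eomes (also called Tbr2) in intermediate progenitors, then Neurod1 and finally Tbr1 in young neurons. Raised SHH signalling in the cortex is best known for inducing genes of ventral lineages.

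Totals ran from 15376071 to 26923127 counts per library. Gli1, a transcription factor induced by SHH signalling, was higher in all treated libraries than in the wild type. It stood at 26.0, 27.7 and 68.9 CPM (counts scaled to library size, with TMM factors) in ShhN IUE libraries 1, 2 and 3, at 47.3, 42.7 and 49.96 in SmoM2 and at 5.65, 9.13 and 7.75 in wild type. ShhN IUE library 3 thus stood apart in Gli1, while the SmoM2 libraries lay close together. Shh itself overlapped between ShhN IUE (2.59 to 28.5 CPM) and wild type (1.70 to 2.82), and ran from 0.18 to 0.64 in SmoM2. Ptch1 was 115 to 301 CPM in ShhN IUE and 271 to 300 in SmoM2, against at most 50.9 in wild type. Smo was 35.4 to 49.3 CPM in ShhN IUE and 71.7 to 84.15 in SmoM2, against at most 26.4 in wild type. Markers of cortical pyramidal neurons were abundant: Neurod6 stood at 513 ± 30.8 CPM and Tbr1 at 371 ± 51.1 CPM in wild type (SD, n = 3). Counts are of bulk tissue, so fewer cells of a type and less RNA per cell cannot be told apart. Tests across all genes used edgeR's quasi-likelihood test with Benjamini-Hochberg adjustment, and a gene is said to rise or fall where its adjusted p was under 0.05.

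In wild-type newborn cortex the 10 genes covered a wide range of levels. Per length, in FPKM (fragments scaled to gene length and library size) as the authors deposited them, Insm1 was highest with 18.6 ± 6.98 (SD, n = 3). Neurod1 followed at 10.2 ± 2.28 and Sstr2 at 6.12 ± 1.06. Neurog2 (2.88 ± 0.547), Mfap4 (2.56 ± 1.98), Btg2 (2.55 ± 0.628) and Eomes (1.57 ± 0.325) came next. In that order Insm1 and Neurod1 overlapped in range, as did each neighbouring pair from Neurog2 to Eomes, while Neurod1, Sstr2 and Neurog2 were apart from each other. Nhlh1 lay far lower at 0.256 ± 0.129 FPKM, Neurod4 at 0.0746 ± 0.00571, and Neurog1 was listed at 0 in 2 of 3 wild-type libraries. Eomes thus ranked seventh of the 10 genes in this tissue, and it was seventh in both treated groups too. Btg2, sixth in wild type, was second in ShhN IUE (11.4 ± 2.16 FPKM), level with Neurod1 (10.8 ± 0.924). In SmoM2 it followed Neurod1 at 7.12 ± 0.642 FPKM, and Eomes, at 0.610 ± 0.197, came down to the level of Nhlh1 (0.585 ± 0.0807). In the plot of wild-type levels the genes fall into an upper group of 7 and a lower group of 3.

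**Figure D1:**
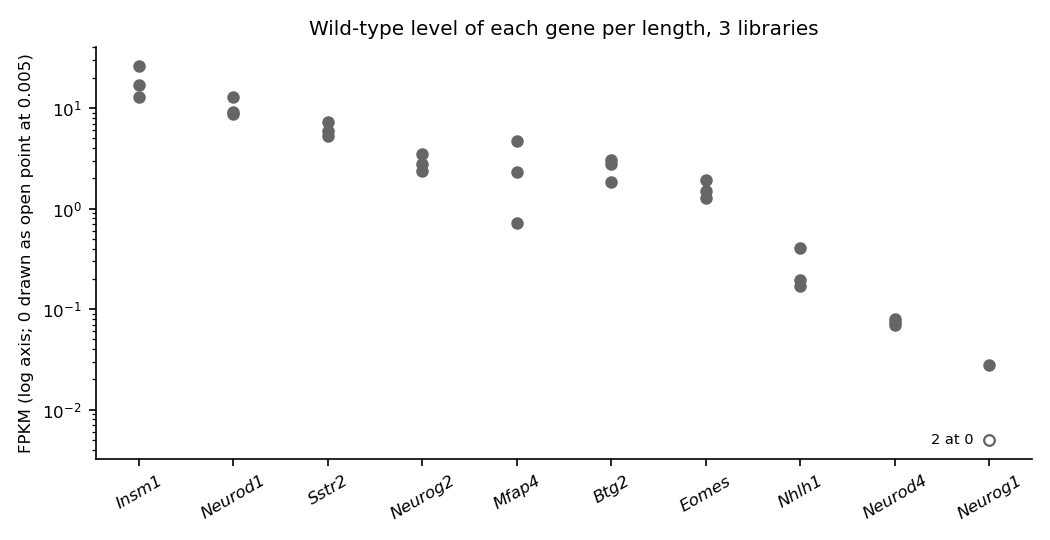
Level of each of the 10 genes in the 3 wild-type libraries, in FPKM on a log axis, from the table that holds ShhN IUE; each point is a library, and open points mark values of 0. Insm1 and Neurod1 lead, Eomes is seventh, and Nhlh1, Neurod4 and Neurog1 lie below all others.

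The sequences just before the start sites of the genes that changed, and of Neurod1 for comparison, show what these genes share and where they differ. RefSeq promoter entries (GRCm38.p6, the build family of the deposited coordinates) were found for 8 of the 10 genes. The 250 bases before each start are given 5′ to 3′ on the gene's strand, with TATATAA and TGACGTCA, the cyclic AMP response element, in capitals. They lie at chr9:118477939-118478188 (+) for Eomes, chr3:127632886-127633135 (+) for Neurog2, chr2:79456637-79456886 (-) for Neurod1, chr1:134079156-134079405 (-) for Btg2 and chr11:113619077-113619326 (+) for Sstr2.
Eomes: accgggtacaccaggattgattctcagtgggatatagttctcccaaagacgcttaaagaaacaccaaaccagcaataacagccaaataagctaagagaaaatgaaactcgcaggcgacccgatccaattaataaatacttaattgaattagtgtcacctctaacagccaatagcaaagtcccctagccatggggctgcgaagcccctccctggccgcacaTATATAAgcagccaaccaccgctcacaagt
Neurog2: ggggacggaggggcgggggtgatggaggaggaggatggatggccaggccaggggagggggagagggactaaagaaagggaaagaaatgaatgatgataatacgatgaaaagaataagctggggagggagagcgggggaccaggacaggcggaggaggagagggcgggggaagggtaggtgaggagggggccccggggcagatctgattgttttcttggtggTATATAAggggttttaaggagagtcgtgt
Neurod1: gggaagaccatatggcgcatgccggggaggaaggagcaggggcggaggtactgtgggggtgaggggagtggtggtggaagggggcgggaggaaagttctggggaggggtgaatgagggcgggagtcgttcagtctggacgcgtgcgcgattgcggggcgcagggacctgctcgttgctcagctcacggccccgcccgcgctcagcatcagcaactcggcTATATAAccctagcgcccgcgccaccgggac
Btg2: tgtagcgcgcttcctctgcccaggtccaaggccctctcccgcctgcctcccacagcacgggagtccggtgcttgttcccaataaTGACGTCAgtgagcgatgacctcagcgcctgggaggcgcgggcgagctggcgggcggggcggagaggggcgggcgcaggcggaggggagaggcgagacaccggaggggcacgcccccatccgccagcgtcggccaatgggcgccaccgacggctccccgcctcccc
Sstr2: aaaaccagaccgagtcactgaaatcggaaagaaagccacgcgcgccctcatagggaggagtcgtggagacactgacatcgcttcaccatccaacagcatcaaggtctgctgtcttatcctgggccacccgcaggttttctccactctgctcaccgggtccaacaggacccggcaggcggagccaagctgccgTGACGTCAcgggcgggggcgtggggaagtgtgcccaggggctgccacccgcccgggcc
Eomes, Neurog2 and Neurod1 each hold TATATAA with its first base at -30, -29 and -31, counted from the start site. Neurog1, Neurod4 and Nhlh1, also of the set, hold no TATATAA in their windows, so not all of its lineage factors share it. This element occurs on the gene's strand between 40 and 20 bases before the start in 0.578% of 32851 promoter windows of the same length. Btg2 and Sstr2, which lack it, each hold TGACGTCA, at -166 and -58, found on either strand in 1.55% of windows. Both motifs were chosen after the sequences had been read, so these are descriptions. A CANNTG E-box, the kind of site that bHLH factors bind, was found in 66.2% of all windows. It was in none of the windows of Eomes, Neurog2, Btg2 and Sstr2, nor in those of the untested Neurog1 and Neurod4. In Neurod1 there was 1 at -242, and in Nhlh1 1 of the form CAGATG at -203 (14.4% of windows hold that form). The T-box site AGGTGTGA (1.12% of windows) and the GLI site GACCACCCA (0.225%) were found in none of the windows of these 8 genes. All motifs but the placed TATATAA were sought on both strands, and CAGATG is itself a form of CANNTG. A missing match says only that these letters are not in this window.

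With raised SHH signalling the 10 genes did not move as a block. In ShhN IUE against wild type, Neurog2 and Btg2 rose, Sstr2 fell, 5 others did not pass the test and 2, Neurog1 and Neurod4, had too few counts to be tested. In SmoM2 against wild type, Btg2 rose, Eomes and Sstr2 fell, 5 did not pass, and the same pair was left untested. For comparison, 33.3% of 16180 genes tested changed in ShhN IUE (16.1% rose and 17.2% fell) and 18.9% of 16485 in SmoM2 (9.59% rose and 9.29% fell). In each comparison 3 of 8 tested genes changed, which is close to the share over all genes in ShhN IUE and above it in SmoM2, from few genes. Their median log2 fold change was 0.44 in ShhN IUE and -0.14 in SmoM2, against -0.00384 and -0.00719 over all genes tested. The group totals of the 10 genes ran from 180 to 233 CPM in ShhN IUE and from 135 to 174 in wild type. Insm1, which did not pass, was the largest part of these totals (means of 78.1 and 58.95 CPM), and Btg2 had means of 30.8 and 7.08 CPM. The totals thus do not show a rise of the set. SmoM2 totals, 139 to 161 CPM, lay within those of the wild type in its table, 137 to 173 CPM. Libraries did not overlap between groups for 3 of the 8 tested genes in ShhN IUE, where 49.4% of all genes tested did not, and for 4 of 8 in SmoM2, where 40.1% did not. Neurog1 and Neurod4 overlapped in both.

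**Figure D2:**
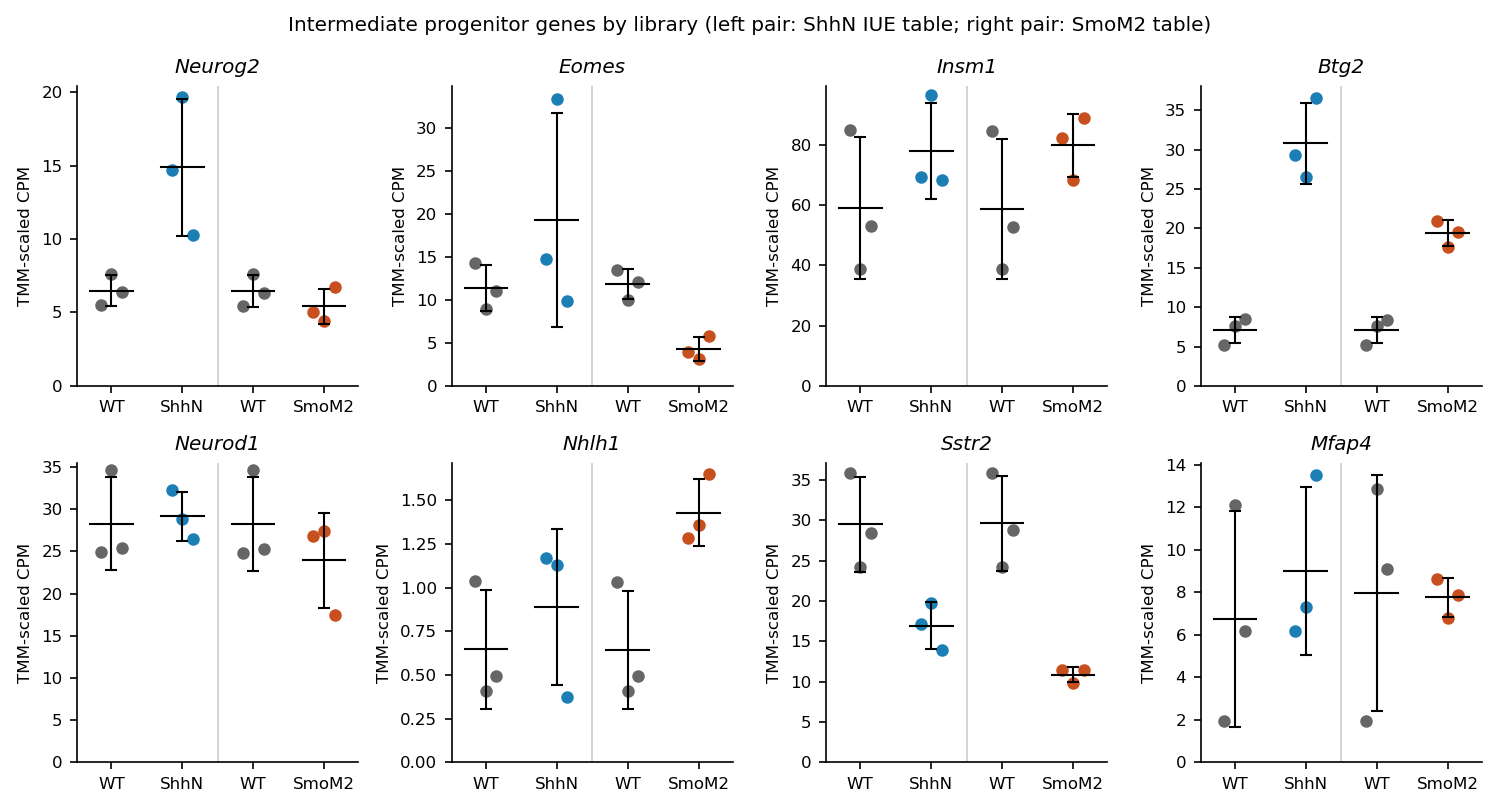
TMM-scaled CPM of the 8 tested genes by library; the left pair of columns in each panel is the table of ShhN IUE and the right pair that of SmoM2, with the same 3 wild-type libraries in both. Points are libraries, and the lines are the mean and SD; Btg2 is above and Sstr2 below wild type in all treated libraries, and Eomes is below it in the 3 SmoM2 libraries.

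Neurog2 and Neurog1 are proneural basic helix-loop-helix (bHLH) factors that start neuronal differentiation in dorsal progenitors. Neurog2 (chromosome 3, 127633135 to 127635631) stood at 14.7, 19.6 and 10.3 CPM in ShhN IUE libraries 1, 2 and 3, and at 5.50, 7.59 and 6.37 in wild type. All ShhN IUE libraries were above all wild-type libraries, with library 3 the lowest of them. The rise was 2.29-fold (log2 fold change 1.20 ± 0.263, SE, adjusted p = 0.0113), and it passed in all 14 alternative analyses (highest adjusted p = 0.0390). In SmoM2, Neurog2 stood at 5.06, 4.45 and 6.75 CPM, within the spread of wild type (5.42, 7.60 and 6.35). Its log2 fold change there was -0.25 ± 0.223 (adjusted p = 0.467). Neurog1 was barely detected. It had 4, 4 and 0 counts in ShhN IUE and 0, 1 and 0 in wild type. Scaled to depth that is 9.07 times as much, with limits of 1.22 and 402 at 95% that cover counting error only. In SmoM2 it had 1 count in all, and no fold is given.

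Eomes is the T-box factor that defines the intermediate progenitor of pyramidal neurons. In SmoM2 libraries it stood at 4.0, 3.14 and 5.83 CPM, against 13.4, 9.96 and 12.0 in wild type. Every SmoM2 library was below every wild-type library, by a wide gap. Eomes (chromosome 9, 118478212 to 118486132) fell 2.73-fold, with a log2 fold change of -1.45 ± 0.249 (adjusted p = 0.00623). The fall passed in all 14 alternatives, with log2 values from -1.71 to -1.25. In ShhN IUE the libraries disagreed: 14.7, 33.4 and 9.83 CPM, against 14.3, 8.997 and 11.0 in wild type. Library 2 was far above the wild type and the other 2 lay within or near its range. The log2 fold change of 0.76 ± 0.416 did not pass (adjusted p = 0.192), and without library 2 it was 0.12 (adjusted p = 0.769). Library 2 was not the one with the most Gli1, and library 3, with the most, had the least Eomes and Neurog2 of the 3. Library 3 also had the highest summed level of 8 meningeal and fibroblast genes (795 CPM, against 19.1 and 29.6). Any relation among these levels was not tested.

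Whether the 2 interventions differ from each other was tested in all 9 libraries, over 16195 genes whose wild-type counts agreed between the tables within 0.1 on the log2 scale. Of these, 12349 passed the expression filter and 16.5% were called, 8.45% as higher and 8.07% as lower in SmoM2. Of the 7 genes of the set in that test, 4 were lower in SmoM2 than in ShhN IUE and 3 did not pass. Their median log2 difference was -0.65, against -0.00573 over all genes tested. Eomes was 4.50-fold lower (log2 difference -2.17 ± 0.410, adjusted p = 0.00703) and Neurog2 was 2.77-fold lower (-1.47 ± 0.257, adjusted p = 0.00497). Both calls held without any 1 library, although the Eomes difference was -1.52 without ShhN IUE library 2. Eomes was not tested at a tolerance of 0.05. Btg2 (-0.68 ± 0.177, adjusted p = 0.0273) and Sstr2 (-0.65 ± 0.175, adjusted p = 0.0304) were also lower. These calls were less firm: for Btg2, leaving out ShhN IUE library 1 or 3, or any 1 of the SmoM2 libraries, ended the call (adjusted p up to 0.108, log2 difference from -0.77 to -0.54 over all alternatives). For Sstr2 the same came of leaving out ShhN IUE library 1 or 2 or any SmoM2 library (adjusted p up to 0.117) and of a term for replicate number (0.0505). Neurod1 (-0.30 ± 0.188), Insm1 (0.02 ± 0.245) and Nhlh1 (0.65 ± 0.439) did not pass, and these errors leave room for moderate differences. Mfap4 was not tested because its wild-type counts, 417 and 487, did not agree between the tables.

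**Figure D3:**
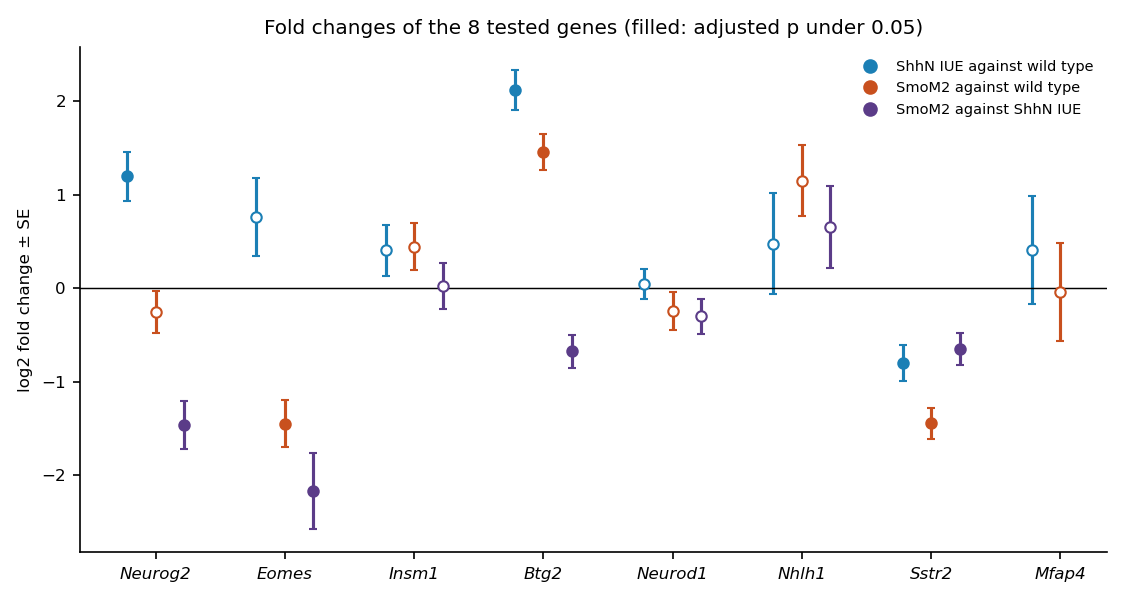
Log2 fold changes with SE (edgeR, n = 3 per group) of 8 genes in the 3 comparisons; filled points passed at an adjusted p under 0.05. Against wild type, Eomes and Neurog2 lie above 0 in ShhN IUE and below it in SmoM2, but Eomes passed only in SmoM2 and Neurog2 only in ShhN IUE. Btg2 and Sstr2 each keep their direction in both comparisons with wild type.

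Within each library the level of Eomes can be set against its neighbours in the sequence, with no scaling between libraries. The log2 ratio of Eomes to Pax6 counts, the latter the radial glia factor that precedes it, was -3.37, -3.59 and -2.94 in SmoM2 and -0.60, -0.73 and -0.83 in wild type. In ShhN IUE it was -2.06, -1.16 and -2.67, against -0.26, -0.64 and -0.69. All treated libraries were below all wild-type libraries, ShhN IUE library 2 included. The mean difference from wild type was -2.58 in SmoM2 and -1.44 in ShhN IUE. In both comparisons the 2-sided exact permutation p was 0.1, the smallest that 3 against 3 can give, and 0.2 adjusted over 6 such ratios. Pax6 itself rose 2.15-fold in SmoM2 and 4.08-fold in ShhN IUE, whereas Eomes in ShhN IUE did not pass. The wild-type ratios of the 2 tables differ, and both genes have other wild-type counts in each: 673 and 699 in all for Eomes, and 330, 309 and 323 against 395, 364 and 391 by library for Pax6.

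The ratio of Eomes to Neurog2 also separated SmoM2 (-0.34, -0.50 and -0.21) from wild type (1.30, 0.39 and 0.92), with the same exact permutation p of 0.1. In ShhN IUE it was 0.00 (0.00497), 0.76 and -0.06, overlapping the wild type (1.37, 0.24 and 0.78; exact permutation p = 0.2). The ratio of Neurod1 to Eomes was 2.73, 3.11 and 1.58 in SmoM2 and 0.88, 1.79 and 1.07 in wild type. One wild-type library reached into the SmoM2 range there (exact permutation p = 0.2). In ShhN IUE that ratio overlapped the wild type (exact permutation p = 0.5).

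**Figure D4:**
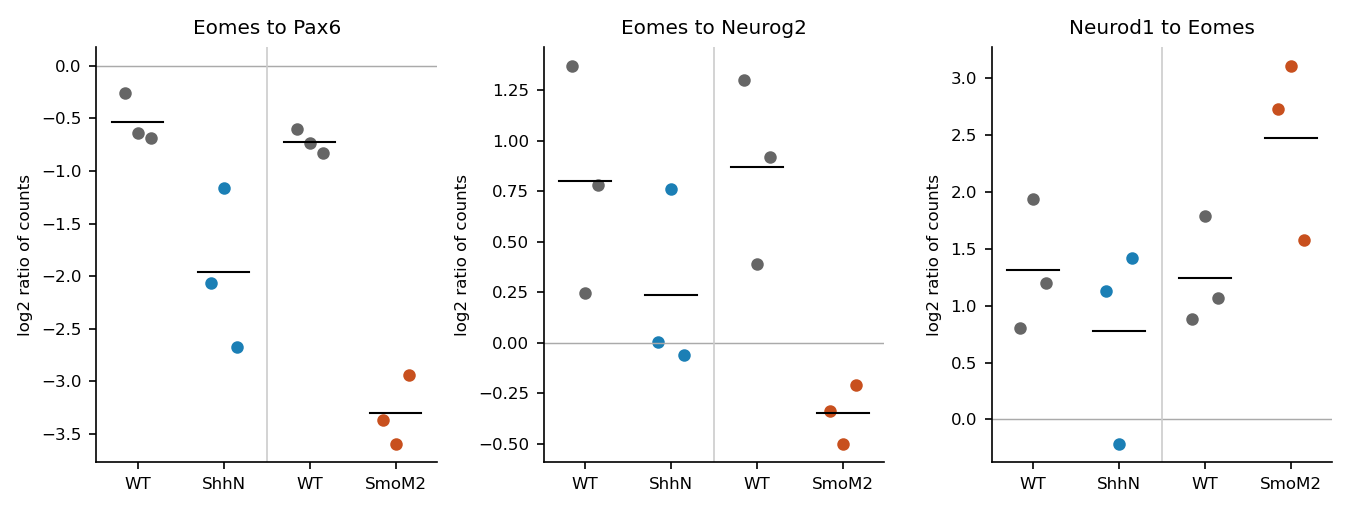
Log2 ratios of counts within each library for Eomes to Pax6, Eomes to Neurog2 and Neurod1 to Eomes; the left pair of columns in each panel is the table of ShhN IUE, the right pair that of SmoM2, points are libraries and lines are means. Eomes to Pax6 is below wild type in all 6 treated libraries, and Eomes to Neurog2 is below it in the 3 SmoM2 libraries.

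Insm1, a zinc-finger factor of progenitors leaving the ventricular surface, was the most abundant of the 10 genes in each group. It stood at 69.2, 96.6 and 68.5 CPM in ShhN IUE and at 82.2, 68.3 and 89.1 in SmoM2. Wild-type libraries 1, 2 and 3 had 85.0, 38.9 and 53.01 CPM in the first table. The wild type alone spanned most of the range of the treated libraries. Neither log2 fold change passed (0.41 ± 0.275 in ShhN IUE, adjusted p = 0.285, and 0.44 ± 0.253 in SmoM2, adjusted p = 0.254). Without wild-type library 1, which had the highest wild-type level, both passed: 0.77 in ShhN IUE (adjusted p = 0.0377) and 0.80 in SmoM2 (adjusted p = 0.0177).

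Btg2, also called Tis21, is an antiproliferative gene switched on in progenitors that are about to produce neurons. It had the largest rise of the 8 tested genes in both comparisons. Its level was 29.3, 26.5 and 36.5 CPM in ShhN IUE against 5.24, 7.54 and 8.46 in wild type, and 20.9, 17.7 and 19.6 CPM in SmoM2. No treated library came near the wild-type range. The rise was 4.34-fold in ShhN IUE (log2 fold change 2.12 ± 0.215, adjusted p = 0.000863) and 2.74-fold in SmoM2 (1.46 ± 0.193, adjusted p = 0.00222), and it passed in all 14 alternatives of each. Btg2 lies on chromosome 1 from 134075170 to 134079120.

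Btg2 is also known as a target of p53 and as an immediate early gene, and other genes of these kinds were measured beside it. Of 8 p53 target genes, 1 rose in ShhN IUE (Bbc3, a pro-apoptotic gene, log2 fold change 1.05 ± 0.195) and 2 in SmoM2 (Bbc3, 0.68 ± 0.111, and Ccng1, 0.78 ± 0.102). Their summed level was 228 to 291 CPM in ShhN IUE, 272 to 279 in SmoM2 and 231 to 238 in wild type. Of 10 immediate early genes, 1 rose and 4 fell in ShhN IUE and 1 rose and 3 fell in SmoM2, with Egr1 at -1.35 ± 0.174 in ShhN IUE and Egr2 at -1.77 ± 0.291 and Fosb at -1.68 ± 0.284 in SmoM2. The gene that rose in ShhN IUE was Dusp1 (0.99 ± 0.163), and in SmoM2 it was Arc (1.54 ± 0.297, adjusted p = 0.0100), a change as large as that of Btg2. Of 12 cell cycle genes, 10 rose and 1 fell in ShhN IUE and 11 rose in SmoM2, with the proliferation marker Mki67 at 1.74 ± 0.137 and 1.56 ± 0.169 and the mitotic checkpoint kinase Bub1b at 2.05 ± 0.204 and 1.71 ± 0.202. Most cell cycle genes, 1 immediate early gene in each comparison, and 1 p53 target gene in ShhN IUE and 2 in SmoM2 thus rose with Btg2. The part of these groups in the change of Btg2 was not tested.

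Neurod1, Neurod4 and Nhlh1 are bHLH factors of the step from intermediate progenitor to neuron. Neurod1 stood at 32.2, 28.8 and 26.4 CPM in ShhN IUE, 26.8, 27.5 and 17.5 in SmoM2 and 24.9, 34.6 and 25.4 in wild type. All groups overlapped, with SmoM2 library 3 the lowest of all. The log2 fold changes were 0.04 ± 0.161 (adjusted p = 0.859) and -0.24 ± 0.202 (adjusted p = 0.443). Neurod1 lies on chromosome 2 from 79452521 to 79456751. Nhlh1 had few counts: 35, 32 and 43 in SmoM2 and 20, 9 and 9 in wild type. In CPM all SmoM2 libraries (1.28, 1.36 and 1.65) were above all wild-type libraries (1.03, 0.410 and 0.492). The 2.22-fold difference did not pass (log2 fold change 1.15 ± 0.377, adjusted p = 0.0674). It passed without wild-type library 1 (log2 fold change 1.66, adjusted p = 0.0168) and with limma-voom (adjusted p = 0.0498). In ShhN IUE Nhlh1 had 23, 19 and 6 counts and a log2 fold change of 0.48 ± 0.541 (adjusted p = 0.527). Neurod4 had 10 counts in ShhN IUE, 18 in SmoM2 and 15 in wild type in all, too few to test. Its ratios were 0.756 (95% counting interval 0.304 to 1.80) and 0.930 (0.443 to 1.98), so no difference was detectable at this depth.

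Sstr2, a somatostatin receptor found in intermediate progenitors and in young neurons, fell in both comparisons. It stood at 17.1, 19.8 and 13.9 CPM in ShhN IUE, 11.4, 9.79 and 11.4 in SmoM2 and 35.8, 24.3 and 28.4 in wild type. All treated libraries were below all wild-type libraries, with SmoM2 the lowest. The fall was 1.74-fold in ShhN IUE (log2 fold change -0.80 ± 0.190, adjusted p = 0.0149) and 2.72-fold in SmoM2 (-1.44 ± 0.165, adjusted p = 0.00119). Without ShhN IUE library 1 the first lost its call (adjusted p = 0.0535) at a log2 value of -0.80. The gene lies on chromosome 11 from 113619342 to 113626028.

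Mfap4 encodes a matrix glycoprotein and is expressed by fibroblasts and vessel walls as well as by cortical progenitors. It varied most within the wild type, at 1.97, 12.1 and 6.21 CPM in libraries 1, 2 and 3 of the first table. ShhN IUE had 6.20, 7.30 and 13.5 CPM and SmoM2 had 8.62, 6.78 and 7.90. Neither comparison passed (log2 fold change 0.41 ± 0.574, adjusted p = 0.614, and -0.04 ± 0.520, adjusted p = 0.966). A list of 8 genes of meninges and fibroblasts, among them Col1a1 and Foxc1, summed to 13.5, 502 and 182 CPM in these wild-type libraries. That is the order of Mfap4, and ShhN IUE libraries 1, 2 and 3 had 19.1, 29.6 and 795 CPM, again in the order of Mfap4. SmoM2 libraries had 418, 205 and 310 CPM, also in that order. Of the 8 genes, the smallest adjusted p was 0.639 in ShhN IUE (Col1a1) and 0.666 in SmoM2 (Lum). Of 7 mural cell genes, 3 rose in ShhN IUE, among them Cspg4 (0.74 ± 0.137) and Kcnj8 (1.20 ± 0.331), and 4 did not pass. In SmoM2 the smallest adjusted p of the 7 was 0.153 (Cspg4). The part of meningeal and mural cells in the spread of Mfap4 was not tested.

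**Figure D5:**
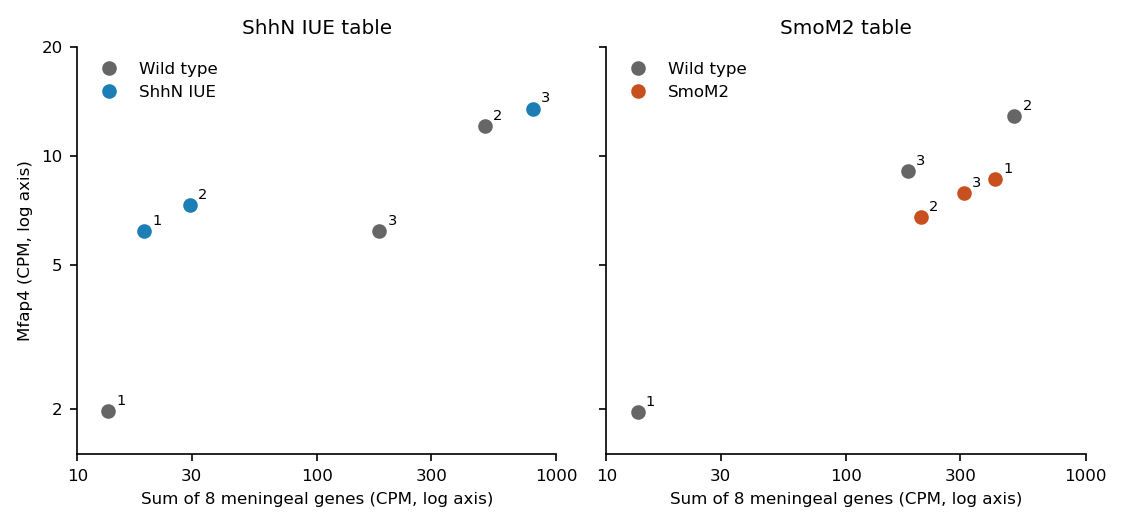
Mfap4 against the summed level of 8 genes of meninges and fibroblasts, both in CPM on log axes, with the ShhN IUE table on the left and the SmoM2 table on the right; points are libraries and the digits are replicate numbers. Within each group the library with more meningeal signal has more Mfap4, and wild-type library 1 is lowest in both.

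Other genes of the same step, from a list of 15, were read from the same fits. In ShhN IUE 6 rose, 1 fell and 6 did not pass, and 2 had too few counts, with a median log2 fold change of 0.37. In SmoM2 4 rose, 1 fell and 8 did not pass, with a median of 0.37 (0.365). Mfng, a glycosyltransferase that modifies Notch receptors, rose 4.85-fold in ShhN IUE (2.28 ± 0.163, adjusted p = 0.000420) and 3.42-fold in SmoM2 (1.77 ± 0.156, adjusted p = 0.000433). Dll1, a Notch ligand induced by proneural factors, rose 1.95-fold and 1.79-fold (adjusted p = 0.00134 and 0.00163). Slc17a6, a vesicular glutamate transporter, fell 1.71-fold and 2.33-fold (adjusted p = 0.00475 and 0.00108). Mfng and Dll1 thus rose in SmoM2, in which Eomes fell, and Slc17a6 fell with it. Between SmoM2 and ShhN IUE, 4 of 8 tested genes of the list were lower in SmoM2, Mfng and Slc17a6 among them, and 1 was higher.

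Among 7 genes of the following neuronal step, 3 fell and 4 did not pass in each comparison. Tbr1, the T-box factor of deep-layer neurons that follows Eomes, fell 1.76-fold in ShhN IUE (adjusted p = 0.0114) and 2.00-fold in SmoM2 (adjusted p = 0.000655). Nhlh2, a relative of Nhlh1, fell 1.63-fold and 2.50-fold (adjusted p = 0.0245 and 0.00265), while Nhlh1 itself did not fall in either. Of 12 genes listed under dorsal radial glia, 6 rose in ShhN IUE, with Nes, an intermediate filament, at 1.62 ± 0.136. The list did not rise as a whole: Emx1 (-0.14 ± 0.164) and Emx2 (-0.09 ± 0.213) were among those that did not pass in ShhN IUE. In SmoM2 5 rose, with Sox2 at 1.12 ± 0.103 and Slc1a3 at 1.26 ± 0.128, and 2, Emx1 and Emx2, fell. The latter are cortical patterning factors, with log2 fold changes of -0.63 ± 0.157 and -0.78 ± 0.156 in SmoM2. Of 9 genes of ventral intermediate progenitors, 8 rose in ShhN IUE and 7 in SmoM2, with Sp8, a zinc-finger factor, 7.74-fold and 7.38-fold higher. Their sum was 699 to 1020 CPM in ShhN IUE, 788 to 858 in SmoM2 and 254 to 301 in the wild type of the ShhN IUE table. Insm1 and Btg2 are also expressed in those cells, and the part of ventral progenitors in their levels was not tested.

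Eomes is also made by Cajal-Retzius cells early on and by mitral and tufted cells of the olfactory bulb, and their markers were examined. Of 7 Cajal-Retzius genes, 5 fell in SmoM2 and 2 in ShhN IUE. Reln, the secreted protein of these cells, fell 2.37-fold in SmoM2 and 1.84-fold in ShhN IUE. Their sum was 226 to 263 CPM in SmoM2, 284 to 341 in ShhN IUE and 467 to 589 in the wild type of the ShhN IUE table. Most of this sum was Reln, with means of 194.5, 243 and 448 CPM. Of 5 mitral and tufted cell genes, 4 were tested in SmoM2 and 3 fell, and 3 were tested in ShhN IUE and 2 fell. These sums were 21.8 to 25.9 CPM in SmoM2, 29.9 to 32.5 in ShhN IUE and 51.4 to 67.5 in the same wild type. Slc17a6 made up most of them, with means of 21.0, 28.8 and 49.3 CPM, so each sum mainly follows 1 gene. Cdhr1, a cadherin of these cells, fell 8.98-fold in ShhN IUE (log2 fold change -3.17 ± 0.666) and 3.905-fold in SmoM2 (-1.965 ± 0.559, adjusted p = 0.0427). It had only 19 counts in all in ShhN IUE, and its wild-type libraries there ran from 1.04 to 5.60 CPM. Tbx21, a defining mitral cell gene, had 21 to 24 counts per group and was not tested. Lhx5 stands in both lists, and Slc17a6 also in that of the intermediate progenitor step. The fall of Eomes in SmoM2 therefore went with falls of these other cell types' markers, and their part in it was not tested. In ShhN IUE the sums of these markers were also below wild type in all libraries. Eomes is also present in dentate progenitors and in unipolar brush cells of the cerebellum. Of 3 tested dentate and cortical hem genes 1, Prox1, rose in both comparisons (0.95 ± 0.246 and 0.89 ± 0.160), and the 1 tested gene of a cerebellar list, Zic1, had adjusted p of 0.359 and 0.988.

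The genes whose log2 CPM followed Eomes most closely over the 6 libraries of a table were picked from those with a mean of at least 5 CPM. They were Gatad2a, Ncln, Ccdc124, Rpl10a and Aoc2 in the ShhN IUE table (Pearson's r from 0.983 to 0.993 over 12061 genes). In the SmoM2 table they were Gm43737, Ctu2, St3gal4, Pcdhb22 and Ggct (0.992 to 1.00 over 11974 genes). No gene is in both lists, and the values are a description over 6 libraries, of which 3 are shared by both tables. Group means were not removed, so r also reflects the differences between groups given above. Among the 10 genes, those most like Eomes in the SmoM2 table were Sstr2 (r = 0.967) and Neurog2 (0.590), and Btg2 ran opposite to it (-0.910). In the ShhN IUE table r was 0.779 for Insm1, 0.772 for Nhlh1, 0.766 for Neurog1 and 0.695 for Neurog2, and it was -0.05 for Sstr2 and -0.80 for Neurod4. The values of Neurog1 and Neurod4 rest on a few counts per library.

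The authors' own calls can be set beside these. In the authors' deposited table for SmoM2, q was 3.67e-05 for Eomes, 1.23e-07 for Btg2, 4.56e-09 for Sstr2 and 0.0509 for Nhlh1. In the authors' deposited table for ShhN IUE it was 0.00243 for Neurog2, 2.13e-12 for Btg2, 0.0108 for Sstr2 and 0.165 for Eomes. At 0.05 these are the same genes as called here.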

How the data were processed

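The 10 genes and the gene lists were chosen with earlier results of these data known. The authors deposited read counts and FPKM per gene and library and a q-value for each comparison, per the file headers. HISAT2, StringTie and edgeR, with builds GRCm38.p4 and mm10, are listed per the submitters' processing notes; counting rules and strand are not given in the sources used here. Counts were tested in R 4.3.3 with edgeR 4.0.16 (TMM, default expression filter by group, quasi-likelihood F test, n = 3 per group, threshold 0.05). SE is the log2 fold change divided by the root of F. SmoM2 was tested against ShhN IUE with the mean of both wild-type counts, over genes that agreed within 0.1 (log2, 5 added to each sum). Ratios had 1 added to each count, and those other than Eomes to Pax6 were added after the data were seen. Genes named are the 10, those among the 2 with the smallest adjusted p of each list and comparison, those closest to Eomes and, chosen after their values were seen, Emx1, Emx2, Arc, Tbx21 and Neurod6. Gli1, Ptch1, Shh and Smo were read as label checks. Alternatives were RLE and upper quartile scaling, other filters, DESeq2 1.42.0, limma-voom (limma 3.58.1), the replicate block, leaving out libraries and other tolerances. Replicate pairs differed beyond sampling noise (chi-square per degree of freedom 16.5 to 34.3). Functions were tested on simulated data.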

Additional observations from a re-analysis of the deposited data

How the results depend on the processing

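Leaving out 1 library at a time gave 3251 to 4624 changed genes in ShhN IUE (5380 with all, 3251 without ShhN IUE library 1), 1334 to 3010 in SmoM2 (3112 with all, and 1727, 1694 and 1334 without SmoM2 library 1, 2 and 3) and 834 to 2336 between SmoM2 and ShhN IUE (2040 with all; 936 without ShhN IUE library 1 and 1125, 834 and 962 without the SmoM2 libraries). Of the 10 genes, 2 to 3 rose and 0 to 1 fell in ShhN IUE and 1 to 3 rose in SmoM2 (2 with limma-voom), while 2 fell there throughout. Between SmoM2 and ShhN IUE 2 to 4 were lower. Signs turned only for genes that did not pass: Neurod1 in ShhN IUE (-0.0384 to 0.21 without 1 library), Mfap4 in ShhN IUE (-0.0271 to 1.14) and in SmoM2 (-0.50 to 0.50 without 1 library, 0.31 with limma-voom, and 0.235 when blocked by replicate) and Insm1 between SmoM2 and ShhN IUE (-0.0700 to 0.21). Of 353 values of single genes under the alternatives, 325 kept direction and side of the threshold, 12 lost a call, 4 gained one and 12 changed sign; the cause was not tested.

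Same-numbered libraries of a treated group and the wild type share only a number: the correlation of their deviations from group means was 0.27, -0.32 and -0.10 in the ShhN IUE table and -0.10, -0.16 and 0.05 in the SmoM2 table, and 2 and 1 of 6 libraries correlated best with their own number. With the replicate block 3962, 2468 and 1499 genes changed, and of the calls on the 10 genes it ended that of Sstr2 between SmoM2 and ShhN IUE (log2 difference -0.65, adjusted p = 0.0505) and no other. Depth limits Neurog1, Neurod4 and Nhlh1: 3 counts correspond to 0.110 to 0.188 CPM.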
